A study of Ovis aries with 32 samples.

Results

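Perirenal and epicardial fat were compared within the same animals in 4 female sheep that had been exposed to excess testosterone before birth. The comparison rests on 8 of the 32 samples of the series, chosen as every sample of those 2 depots from testosterone sheep, and it pairs the 2 depots of sheep 48, 185, 233 and 255. Perirenal fat was taken from around the kidney and epicardial fat from the space between the heart muscle and its outer serous layer, per the labels. Between gestation days 30 and 90 their mothers were injected into muscle, 2 times weekly, with 100 mg (1.2 mg/kg) of testosterone propionate dissolved in 2 ml corn oil. The control sheep, numbers 98, 131, 132 and 201, are used here only beside the testosterone sheep, and the labels name for them no treatment of the mothers. All animals of both groups had been ovariectomized at the end of their second breeding season, carried a 1 cm estradiol implant, then 2 progesterone implants for 14 days, and lastly 4 implants of estradiol, each 30 mm long, during the final 18 h of life. They were housed together on a maintenance diet, so that the samples describe a steroid-clamped state in animals without ovaries. Each group used at most 1 daughter of a mother, and the age in years is not given in the labels.

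Perirenal fat lies behind the peritoneum at the level of the kidney and is a site where brown-type fat of the newborn is known to turn white. Epicardial fat lies directly on the myocardium, shares its blood supply and is crossed by cardiac nerves, so that dissection can carry heart muscle or nerve along. Cells of the trunk keep from the embryo a code of HOX transcription factors that marks their level along the body axis, while the mesoderm around the heart is marked by GATA, T-box and HAND factors. These 2 groups of genes therefore help to describe where a fat sample came from, apart from what its adipocytes do. Neither group is proof of origin by itself, since heart tissue carried along in dissection can hold heart factors too.

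The assay counted reads at the 3′ end of messenger RNA, so that no correction for gene length was made, and levels are given as CPM, counts scaled to a common library size. Total counts were 4242625 to 8085558 in the 4 perirenal samples and 1753228 to 5127310 in the 4 epicardial samples, with sheep 48 and 233 the shallowest epicardial samples at 1753228 and 2077594. Of 47 heart muscle genes, the epicardial samples of sheep 48, 233, 185 and 255 held summed levels of 57600, 10423, 1131 and 289 CPM, against 150.3 to 225 CPM in perirenal fat. The epicardial samples thus differed from each other in heart muscle transcripts by far more than the perirenal samples did. Markers of kidney epithelium summed to between 1.69 and 3.35 CPM in perirenal fat, with 0 of 14 genes high enough to be tested. The defining adipocyte genes ADIPOQ and FABP4 were high in every sample, at 2552 CPM or more and 4860 CPM or more in the testosterone samples.

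The sample labelled epicardial of sheep 255 stood apart from the other 3 and is described before the results because they turn on it. It held 94.6 CPM of HOXC6, a patterning factor of the trunk, where the epicardial samples of sheep 48, 185 and 233 held 0, 2.21 and 1.45 CPM and the 4 perirenal samples held 201 to 242 CPM. It also held 11.5 CPM of GATA4, a transcription factor of heart and pericardial mesoderm, where the other epicardial samples held 16.9 to 35.5 CPM and the perirenal samples 0 in all 4. This sample therefore carried transcripts that mark both places. Its log2(CPM + 1) values over 12508 genes correlated at 0.940 to 0.962 with the 4 perirenal samples and at 0.905 to 0.955 with the other epicardial samples, which is a description across genes and not a test. Results are given with all 4 pairs and again without sheep 255.

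Each testosterone sample was fitted as a mixture of the mean control profiles of perirenal, epicardial, visceral and subcutaneous fat. The fit used 218 genes that differed at least 8-fold between control depots. In it the epicardial sample of sheep 255 took 76.9% of the perirenal and 19.1% of the epicardial profile. The epicardial samples of sheep 48, 185 and 233 took 0%, 2.80% and 4.43% of the perirenal profile. Control epicardial samples were each fitted to the means of the other control sheep, over other gene sets of 146 to 260 genes. They took 0% to 21.2% of the perirenal profile. The 4 perirenal testosterone samples took 77.2% to 86.1% of it. On this measure the sample of sheep 255 lay close to perirenal fat and above each other epicardial sample of either group. The shares describe profiles and are not shares of cells, and no test was made.

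**Figure D1:**
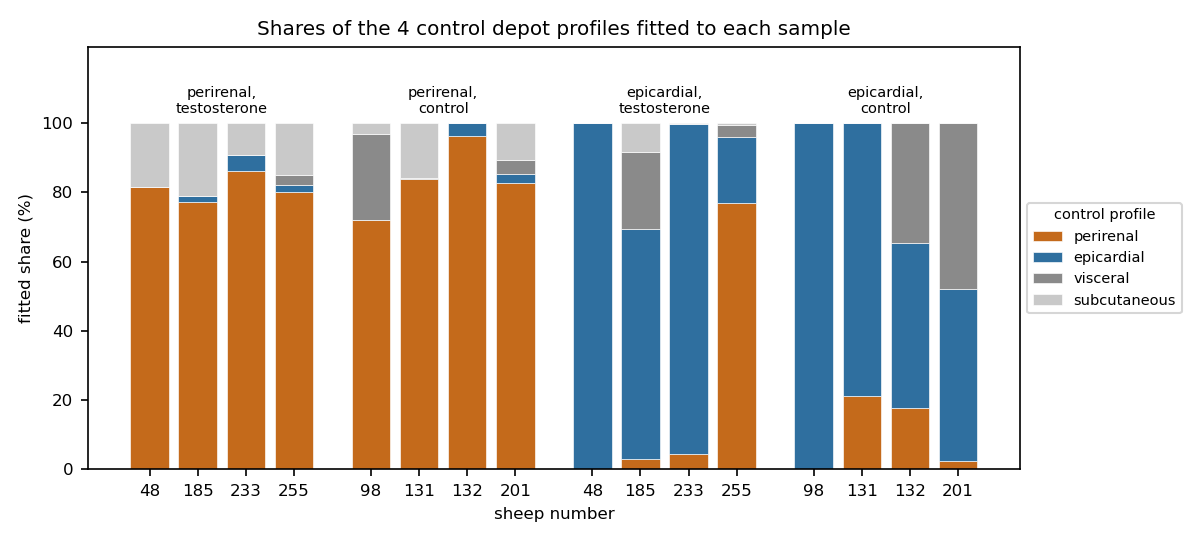
Shares in percent of the 4 control depot profiles fitted by non-negative least squares to each perirenal and epicardial sample, by sheep number, with testosterone and control sheep apart and 1 bar per sample. The epicardial bar of sheep 255 is 76.9% perirenal, while the other epicardial testosterone bars are at most 4.43% perirenal.

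With 4 pairs, 385 of 12508 genes tested (3.08%) differed between the depots at an adjusted p under 0.05 by edgeR's quasi-likelihood test with the sheep as a block, and such genes are named called below. Of these, 104 (0.831%) were higher in perirenal and 281 (2.25%) were higher in epicardial fat. Without sheep 255 the count rose to 930 of 12442 genes (7.47%), with 314 (2.52%) higher in perirenal and 616 (4.95%) higher in epicardial fat, although 1 pair fewer was used. Both fits called 83 of the perirenal and 256 of the epicardial genes. Leaving out sheep 48, 185 or 233 instead left 51, 58 and 31 called genes. The set of calls thus depended on each of these 3 pairs, and only the removal of sheep 255 increased it. The median log2 fold change over all genes tested was 0.02 with 4 pairs and 0.04 without sheep 255, which the scaling sets near 0.

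Of the 385 genes, 17 were called in each of the 4 fits that left out 1 pair, 12 of which are described below. Higher in epicardial fat were GATA4, TBX20, SOX9, CASQ2, NEFL, GRB14, TMEFF2, KERA, UNC13C and RCAN2, and higher in perirenal fat were EDN1 and IGFBP3. Among these, GATA4, TBX20, CASQ2, NEFL, GRB14, TMEFF2 and UNC13C passed the filter on low counts only through their epicardial level. They had to differ, so their calls in each fit are a description. The other named genes called with 4 pairs lost the call in at least 1 of those 4 fits. None of the 100 named genes with a fit was marked as reversed under the alternative settings run. Small differences could still change sign, as did the log2 fold change of TBX3, -0.18 with 4 pairs and 0.09 without sheep 255. Genes chosen for the same direction in all 4 pairs could hardly reverse.

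**Figure D2:**
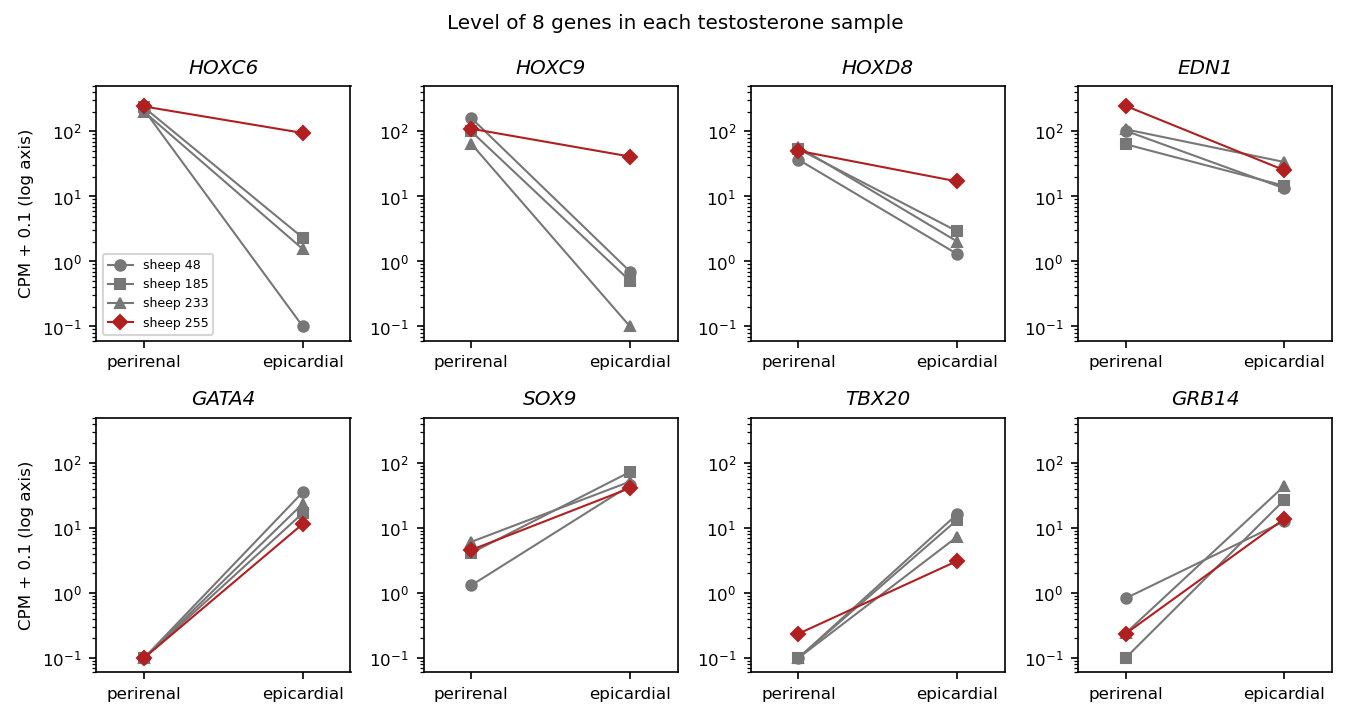
Levels of 8 genes in CPM, with 0.1 added so that 0 can be drawn on the log axis, in the perirenal and epicardial sample of each testosterone sheep. Lines join the 2 samples of a sheep. For HOXC6, HOXC9 and HOXD8 the line of sheep 255 stays far above the other 3 in epicardial fat, while for GATA4, SOX9, TBX20, GRB14 and EDN1 all 4 lines run the same way.

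Of 37 HOX genes in the table, 23 passed the filter on low counts with 4 pairs, and 5 of these were called higher in perirenal and 0 higher in epicardial fat, with a median log2 fold change of 2.73. Without sheep 255, 15 of 20 tested HOX genes were called higher in perirenal and 0 higher in epicardial fat, with a median of 4.15. The shares over all genes in that direction were 0.831% and 2.52%. A gene that passed the filter only through its perirenal level, such as HOXA10, had to differ. These counts are therefore a description. The 37 genes summed to 880.5 CPM, 899 CPM, 729.6 CPM and 897 CPM in the perirenal samples of sheep 48, 185, 233 and 255. In the epicardial samples the sums were 33.0 CPM, 117 CPM, 54.0 CPM and 373 CPM. The groups did not overlap, but the epicardial sample of sheep 255 held more HOX transcript than the other 3 together.

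The 5 HOX genes called with 4 pairs were HOXD8, HOXA6, HOXB7, HOXD3 and HOXB6. HOXD8 stood at 36.8 CPM, 53.6 CPM, 57.9 CPM and 50.3 CPM in the perirenal samples of sheep 48, 185, 233 and 255. Its epicardial levels were 1.20 CPM, 2.81 CPM, 1.93 CPM and 16.9 CPM in the same order. Every perirenal sample was above every epicardial sample, and sheep 255 was highest among the latter. The log2 fold change was 3.44 ± 0.55 (SE, n = 4 pairs, edgeR adjusted p = 0.0312) and 4.55 ± 0.32 without sheep 255 (n = 3 pairs, adjusted p = 0.000529). HOXA6 followed at 34.5 to 74.2 CPM in perirenal fat against 0.482 CPM to 3.82 CPM in the epicardial samples of the other 3 sheep and 23.1 CPM in that of sheep 255. HOXB7 stood at 25.02 to 42.6 CPM in perirenal fat, 1.80 to 4.42 CPM in those 3 epicardial samples and 13.4 CPM in sheep 255.

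HOXC6, HOXC8, HOXC9, HOXA9 and HOXA10, from the middle and the 5′ part of their clusters, which mark levels nearer the tail, were low or at 0 in the epicardial samples of sheep 48, 185 and 233. HOXC9 stood at 161 CPM, 100.1 CPM, 64.6 CPM and 110.0 CPM in the perirenal samples of sheep 48, 185, 233 and 255. Its epicardial levels were 0.601 CPM, 0.402 CPM, 0 and 41.0 CPM. The 3 low epicardial samples rest on only a few reads, while sheep 255 lay nearer to perirenal fat. HOXC9 missed the threshold with 4 pairs (edgeR adjusted p = 0.0776) and passed it without sheep 255 (adjusted p = 0.000178). HOXC6 behaved alike, with an adjusted p of 0.0722 with 4 pairs and a log2 fold change of 7.23 ± 0.46 without sheep 255 (n = 3 pairs, edgeR adjusted p = 0.000415). HOXC8 stood at 52.9 to 99.5 CPM in perirenal fat and at 0, 0.402 CPM, 0 and 35.2 CPM in epicardial fat. HOXA9 stood at 53.5 to 69.2 CPM against 0, 0.201 CPM, 0.964 CPM and 20.3 CPM. HOXA10 had no read in the epicardial samples of sheep 48, 185 and 233, which puts perirenal fat at least 87.5-fold higher in those sheep by a floor of 3 counts over the 3 samples, while the epicardial sample of sheep 255 held 11.3 CPM.

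HOXA3 and HOXA4, from the end of their cluster that marks levels nearer the head, were not called in either fit, while HOXD3 was called in both. HOXA4 stood at 26.8 to 44.7 CPM in perirenal and 5.41 to 29.1 CPM in epicardial fat, with an edgeR adjusted p of 0.0969 with 4 pairs and 0.165 without sheep 255. HOXA3 stood at 33.0 to 49.8 CPM against 7.81 to 30.6 CPM, with adjusted p of 0.0642 and 0.0798. Both genes were highest in sheep 185 among the 4 epicardial samples.

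**Figure D3:**
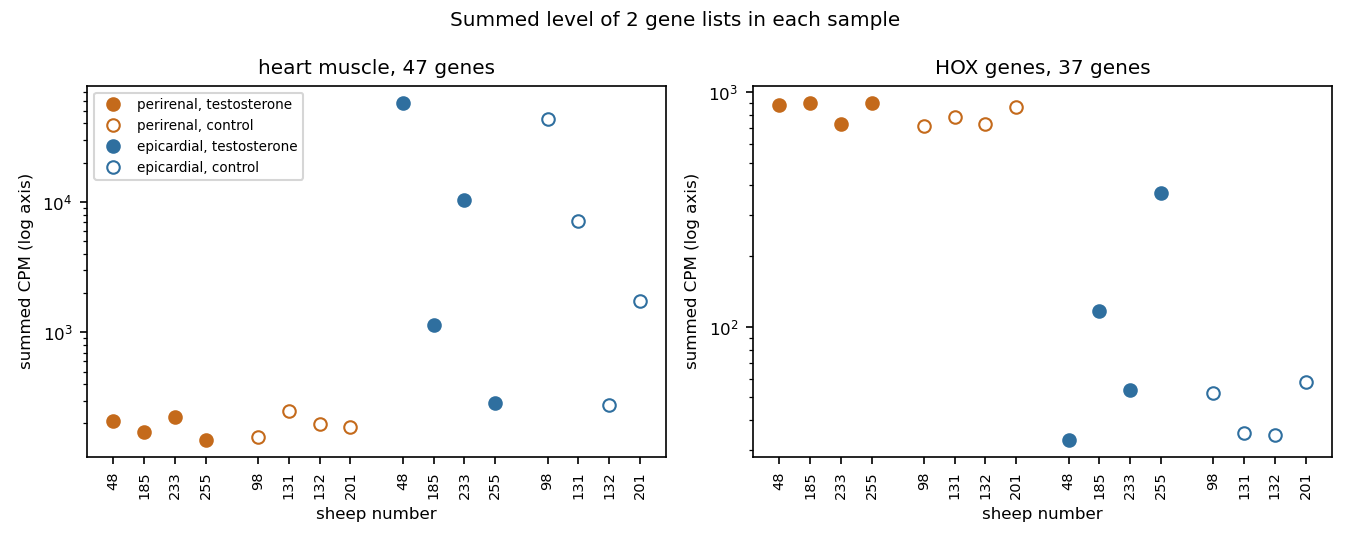
Summed CPM of 47 heart muscle genes (left) and 37 HOX genes (right) in each perirenal and epicardial sample of testosterone sheep (filled) and control sheep (open), on log axes, by sheep number. Heart muscle sums range from 289 to 57600 CPM among epicardial testosterone samples, and the HOX sum of the epicardial sample of sheep 255, 373 CPM, lies between the other epicardial samples and perirenal fat.

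Of 20 regulators of heart and lateral mesoderm in the table, 13 were tested, and 6 were called higher in epicardial and 0 higher in perirenal fat with 4 pairs, and 7 and 0 without sheep 255, against 2.25% and 4.95% of all genes. GATA4 had no read in any perirenal sample and stood at 35.5 CPM, 16.9 CPM, 23.6 CPM and 11.5 CPM in the epicardial samples of sheep 48, 185, 233 and 255. It was at least 149-fold higher in epicardial fat by a floor of 3 counts over the 4 perirenal samples (edgeR adjusted p = 0.0103). All 4 sheep showed the difference, and sheep 255 the smallest. GATA4 passed the filter only through its epicardial level and had to differ, so the counts for this list are a description. As a sum the list is not particular to epicardial fat. It stood at 718 to 925 CPM in the epicardial testosterone samples and reached 940 CPM in a sample of another depot.

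TBX20, a T-box factor of heart development, stood at 16.2 CPM, 13.3 CPM, 7.23 CPM and 3.01 CPM in the epicardial samples of sheep 48, 185, 233 and 255. Perirenal fat held 0 in 3 sheep and 0.136 CPM in sheep 255 (edgeR adjusted p = 0.0103). SOX9, a regulator of cartilage and of the epicardium-derived lineage, stood at 45.1 CPM, 72.8 CPM, 51.6 CPM and 41.0 CPM in epicardial fat and at 1.21 CPM, 4.02 CPM, 6.01 CPM and 4.49 CPM in perirenal fat. Its log2 fold change was -3.76 ± 0.35 (SE, n = 4 pairs, edgeR adjusted p = 0.00727), negative values meaning higher in epicardial fat. For SOX9 the sample of sheep 255 was the lowest of the 4 epicardial samples and above every perirenal sample.

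GATA6, a partner of GATA4, stood at 31.6 to 129 CPM in epicardial and 5.08 to 14.7 CPM in perirenal fat (edgeR adjusted p = 0.0235). TBX5, which patterns the heart and forelimb, stood at 7.33 to 31.2 CPM against 2.10 to 4.36 CPM (adjusted p = 0.0357). HAND2, a factor of the heart and of sympathetic nerves, stood at 36.1 CPM, 7.24 CPM, 20.2 CPM and 4.51 CPM in the epicardial samples of sheep 48, 185, 233 and 255 and at most at 0.483 CPM in perirenal fat (adjusted p = 0.0183). Levels of HAND2 followed the order of the heart muscle sums in sheep 48, 233, 185 and 255, and whether heart tissue in the sample accounts for them was not tested. TBX18, TBX3 and MEF2C, members of the same list, were not called, at 73.3 to 132 CPM, 37.7 to 49.6 CPM and 118 to 230 CPM in perirenal and 52.3 to 127 CPM, 33.2 to 89.0 CPM and 202 to 342 CPM in epicardial fat.

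Among 12 tested regulators of kidney mesoderm and its stroma, 1 was called higher in perirenal fat with 4 pairs and 3 without sheep 255, against 0.831% and 2.52% of all genes, with 0 higher in epicardial fat in either fit. EMX2, a homeobox factor of the urogenital system, stood at 16.7 CPM, 15.6 CPM, 12.3 CPM and 23.5 CPM in perirenal fat of sheep 48, 185, 233 and 255 and at 4.21 CPM, 1.61 CPM, 2.41 CPM and 8.09 CPM in epicardial fat (log2 fold change 2.19 ± 0.34, SE, n = 4 pairs, edgeR adjusted p = 0.0312). FOXD1, which marks the stroma of the developing kidney, stood at 18.2 to 21.1 CPM in perirenal fat against 1.20 CPM, 6.03 CPM, 2.41 CPM and 13.4 CPM, with an adjusted p of 0.0643 with 4 pairs and 0.0236 without sheep 255. DMRT2, a factor of the somites, stood at 79.5 to 142 CPM in perirenal fat, at 0 to 0.964 CPM in the epicardial samples of sheep 48, 185 and 233 and at 68.8 CPM in that of sheep 255. For DMRT2, as for the posterior HOX genes, that sample alone closed the gap, and the adjusted p was 0.106 with 4 pairs and 0.000415 without it. In the fit without sheep 255, DMRT2 passed the filter only through its perirenal level and had to differ. The counts for this list are therefore a description.

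Heart muscle genes are set apart, since their summed level differed so widely among the epicardial samples. With 4 pairs only 13 of the 47 in the table passed the filter. Of these 2, CASQ2 and LDB3, were called higher in epicardial fat, against 2.25% of all genes. Without sheep 255, 34 passed and 29 were called, all higher in epicardial fat, against 4.95% of all genes. The median log2 fold change of the 34 was -8.73, or -8.60 with genes at 0 in perirenal fat set to their bound. A gene that passed the filter only through its epicardial level had to differ, so these counts are a description. CASQ2, the calcium store of heart muscle, stood at 544 CPM, 13.3 CPM, 91.1 CPM and 2.07 CPM in the epicardial samples of sheep 48, 185, 233 and 255 and had no read in perirenal fat (edgeR adjusted p = 0.00727). TTN, the giant sarcomere spring, stood at 11038 CPM, 188 CPM, 3139 CPM and 3.57 CPM in the same samples and at 0 to 3.15 CPM in perirenal fat. MYL2, a light chain of ventricular myosin, stood at 5652 CPM, 1.61 CPM, 272 CPM and 0.188 CPM, and did not pass the filter for the test. The order of sheep 48, 233, 185 and 255 held for 34 of the 47 genes. Outside the heart list, 57 of 279 genes called higher in epicardial fat with 4 pairs (20.4%) had the same order. Of all 12495 genes tested outside that list, 5.80% had it. The epicardial sample of sheep 255 lay toward perirenal fat, so it tended to be lowest among genes higher in epicardial fat. The 2 shares are therefore not a like comparison, and whether these calls moved with the heart sum was not tested. DES, the intermediate filament of muscle, had that order, at 210 CPM, 8.04 CPM, 39.5 CPM and 2.82 CPM in sheep 48, 185, 233 and 255. It was the 1 call of 15 smooth muscle and pericyte genes with 4 pairs, against 2.25% of all genes in that direction. RCAN2, a calcineurin regulator, had the same order, at 69.7 CPM, 8.04 CPM, 24.1 CPM and 5.27 CPM. Both were at 2.24 CPM or less in perirenal fat. With the heart sum as a covariate beside the sheep, 0 genes were called by edgeR, and 694 had an unadjusted p under 0.05, which chance alone gives in about 5% of genes. The heart sum itself separated the depots, at 150.3 to 225 CPM in perirenal fat and 289 CPM or more in epicardial fat. With so few samples, this fit cannot tell the heart sum from the depot, and nothing is concluded from its 0 calls.

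Of 14 tested nerve and Schwann cell genes, 4 were called higher in epicardial fat with 4 pairs and 9 without sheep 255, against 2.25% and 4.95% of all genes, with 0 and 1 higher in perirenal fat. L1CAM, an adhesion protein of nerve cells, was among the 4 called with 4 pairs. NEFL, the light neurofilament of axons, stood at 82.3 CPM, 3.22 CPM, 98.3 CPM and 9.21 CPM in the epicardial samples of sheep 48, 185, 233 and 255 and at most at 0.322 CPM in perirenal fat (edgeR adjusted p = 0.00880). STMN2, a growth cone protein of neurons chosen after its values were seen, stood at 106 CPM, 1.41 CPM, 146 CPM and 0, and CHGB, a granule protein of nerve and adrenal cells chosen likewise, at 48.7 CPM, 1.005 CPM, 46.3 CPM and 0. Both were near 0 in perirenal fat, at 0.544 CPM or less. STMN2 and CHGB were thus present in the 2 epicardial samples with the most heart muscle transcript and the lowest total counts, and nearly absent from the other 2. In bulk tissue, fewer cells of a type and less RNA per cell cannot be told apart. NEFL passed the filter only through its epicardial level and had to differ, so the counts for this list are a description.

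Among genes outside these lists, EDN1, the vasoconstrictor peptide endothelin, was higher in perirenal fat, at 102 CPM, 63.6 CPM, 108 CPM and 248 CPM against 13.2 CPM, 14.5 CPM, 33.7 CPM and 25.2 CPM in sheep 48, 185, 233 and 255. Its log2 fold change was 2.49 ± 0.30 (SE, n = 4 pairs, edgeR adjusted p = 0.0145), and all 4 sheep showed it without overlap of the groups. PRG4, the lubricating proteoglycan of joints and serous surfaces, stood at 21.5 CPM, 57.3 CPM, 37.3 CPM and 136 CPM in perirenal and 3.61 CPM, 18.9 CPM, 7.23 CPM and 5.45 CPM in epicardial fat (2.77 ± 0.49, adjusted p = 0.0357). ST6GAL2, a sialyltransferase, stood at 7.73 to 42.4 CPM against 0.482 to 1.80 CPM (adjusted p = 0.0219). It passed the filter only through its perirenal level and had to differ. DEPP1, a gene induced by FOXO factors in fasting, stood at 52.8 to 297 CPM against 13.7 to 55.4 CPM, where the groups overlapped although the direction held in all 4 pairs (adjusted p = 0.0312). For EDN1, PRG4, ST6GAL2 and DEPP1 the epicardial sample of sheep 255 lay with the other epicardial samples, unlike for the HOX genes. All 4 were called both with and without sheep 255, a choice that favours genes for which that sample did not stand apart.

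In the other direction, KERA, a proteoglycan of the cornea and of dense connective tissue, stood at 14.4 CPM, 85.8 CPM, 37.1 CPM and 16.2 CPM in the epicardial samples of sheep 48, 185, 233 and 255 and at 0 to 3.22 CPM in perirenal fat (log2 fold change -5.55 ± 0.73, SE, n = 4 pairs, edgeR adjusted p = 0.0213). TMEFF2, a membrane protein with follistatin-like domains, stood at 10.7 to 31.3 CPM against 0.161 to 1.54 CPM (adjusted p = 0.00727). UNC13C, a protein of vesicle release, stood at 27.0 CPM, 18.9 CPM, 51.6 CPM and 34.2 CPM against 0 to 1.40 CPM (adjusted p = 0.00727). ERC2, a scaffold of the synapse, stood at 3.57 to 17.8 CPM against 0 to 0.805 CPM (adjusted p = 0.0347). UNC13C in sheep 255 was as high as in the other epicardial samples, while TMEFF2 and ERC2 were lowest there and KERA next to lowest. KERA, TMEFF2, UNC13C and ERC2 passed the filter only through their epicardial level and had to differ.

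Adipocyte genes did not pass with 4 pairs and passed in part without sheep 255. Of 21 tested white adipocyte genes, 0 were called with 4 pairs, and 4 were called higher in perirenal fat without sheep 255, against 2.52% of all genes. The list's median log2 fold change was 0.54 and 0.81 in the 2 fits. FABP4, the fatty acid carrier of adipocytes, stood at 20111 CPM, 15285 CPM, 26485 CPM and 15643 CPM in the perirenal samples of sheep 48, 185, 233 and 255. Its epicardial levels were 4860 CPM, 6252 CPM, 5589 CPM and 15042 CPM, so the sample of sheep 255 reached nearly the level of its own perirenal fat. The log2 fold change was 1.41 ± 0.37 (SE, n = 4 pairs, edgeR adjusted p = 0.0694) and 1.85 ± 0.26 without sheep 255 (n = 3 pairs, adjusted p = 0.0116). ADIPOQ, CIDEC and CAVIN1 were the other 3 called without sheep 255, named after their values were seen. TRARG1, a partner of the insulin-regulated glucose transporter, stood at 182 to 370 CPM against 96.4 to 205 CPM and was not called in either fit.

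Of 21 lipogenic genes, 0 were called with 4 pairs and 3 higher in perirenal fat without sheep 255, against 2.52% of all genes, among them PGD, an NADPH-producing enzyme, at 114 to 189 CPM in perirenal against 47.5 to 110 CPM in epicardial fat (edgeR adjusted p = 0.0786, and 0.0266 without sheep 255). LPIN1, a phosphatidate phosphatase, stood at 117 to 287 CPM against 79.3 to 198 CPM and was not called. Of 23 genes of lipolysis and its receptors, 1 was called higher in each depot with 4 pairs, against 0.831% and 2.25% of all genes. ADRA2A, the receptor through which catecholamines restrain lipolysis, stood at 37.3 CPM, 80.2 CPM, 98.3 CPM and 53.8 CPM in perirenal and 15.6 CPM, 36.6 CPM, 26.5 CPM and 28.4 CPM in epicardial fat of sheep 48, 185, 233 and 255 (log2 fold change 1.28 ± 0.22, SE, n = 4 pairs, adjusted p = 0.0340). NPR3, the receptor that clears natriuretic peptides, a class of hormone made by the heart, was higher in epicardial fat at 22.2 CPM, 37.6 CPM, 88.2 CPM and 22.4 CPM against 3.39 CPM, 9.34 CPM, 4.33 CPM and 3.54 CPM (-2.93 ± 0.39, adjusted p = 0.0213). Both differences had the same direction in all 4 sheep.

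Of 15 tested genes of brown and beige fat, 1 was called with 4 pairs, against 3.08% of all genes. This was PRDM16, a regulator of brown fat identity, at 12.4 to 25.5 CPM in epicardial and 3.70 to 6.12 CPM in perirenal fat (log2 fold change -1.80 ± 0.34, SE, n = 4 pairs, edgeR adjusted p = 0.0392). Without sheep 255, 2 genes were called higher in perirenal and 3 higher in epicardial fat of 16 tested, against 2.52% and 4.95% of all genes. Of 21 genes of fatty acid oxidation, 0 were called with 4 pairs and 2 higher in perirenal fat without sheep 255, against 2.52% of all genes. Among these was the peroxisomal enzyme EHHADH, at 116 to 331 CPM against 42.7 to 118 CPM. None of 29 oxidative phosphorylation genes was called by edgeR in either fit. Their subunit NDUFS1 stood at 42.6 to 78.1 CPM in perirenal fat, 46.5 to 71.8 CPM in 3 epicardial samples and 215 CPM in the epicardial sample of sheep 48, where heart muscle transcripts were highest. Catalase, CAT, of 25 antioxidant genes, stood at 528 to 1245 CPM in perirenal and 247 to 571 CPM in epicardial fat and was called only without sheep 255 (edgeR adjusted p = 0.0886 and 0.0342).

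**Figure D4:**
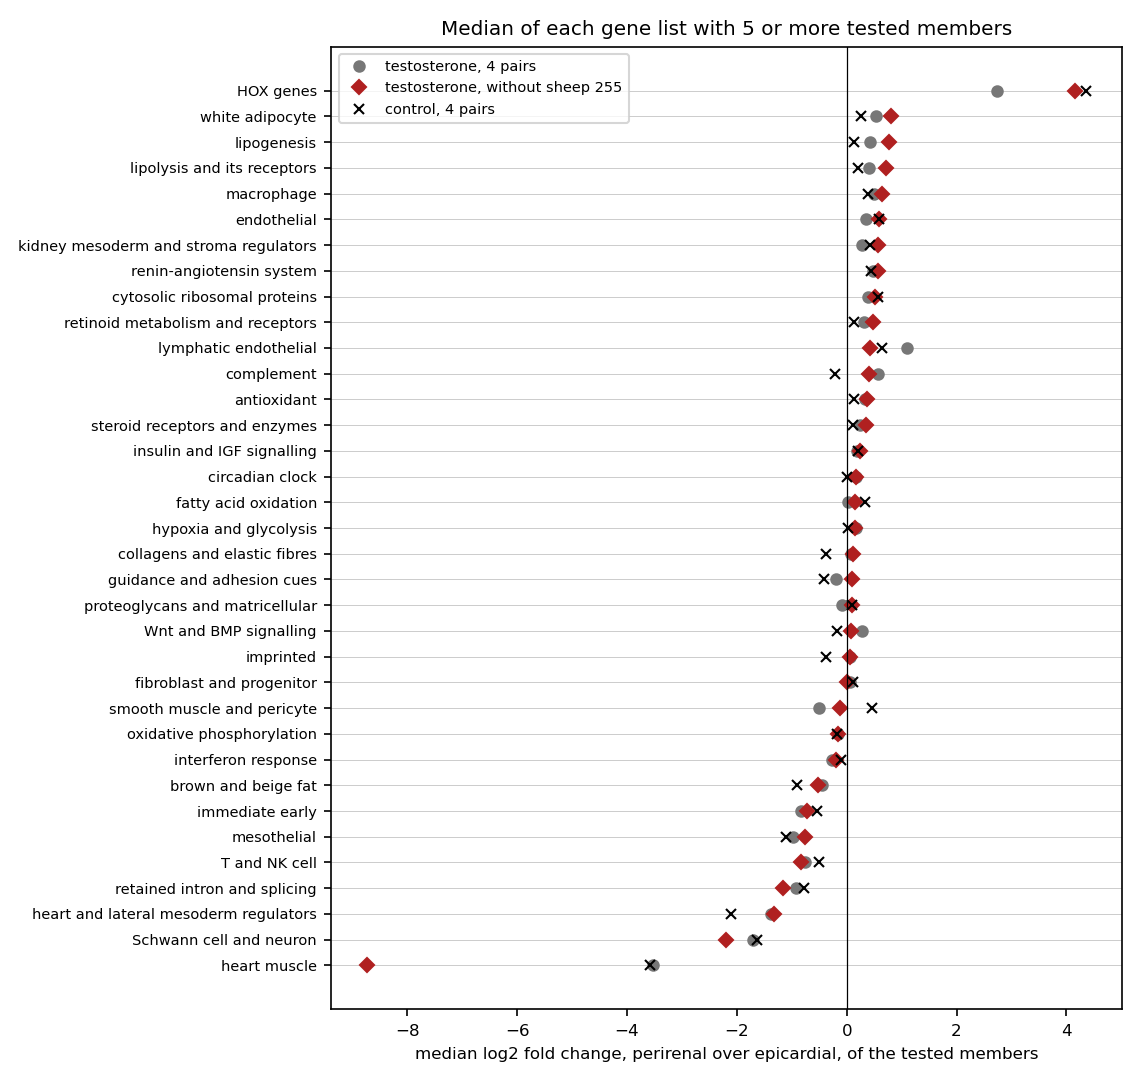
Median log2 fold change of perirenal over epicardial fat for each gene list with 5 or more tested members, in testosterone sheep with 4 pairs, without sheep 255, and in control sheep. The HOX list lies farthest to the perirenal side at 2.73 with 4 pairs and 4.15 without sheep 255, and the heart muscle list farthest to the epicardial side.

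Of 26 tested genes of insulin and insulin-like growth factor signalling, 3 were called with 4 pairs, against 3.08% of all genes. GRB14, an adaptor that blocks the insulin receptor, stood at 12.6 CPM, 26.9 CPM, 44.3 CPM and 13.7 CPM in the epicardial samples of sheep 48, 185, 233 and 255. In perirenal fat it stood at 0.726 CPM, 0, 0.140 CPM and 0.136 CPM. The epicardial sample of sheep 255 held as much as that of sheep 48, and the groups were far apart (log2 fold change -6.69 ± 0.64, SE, n = 4 pairs, edgeR adjusted p = 0.00791). GRB14 passed the filter only through its epicardial level and had to differ, so the counts for this list are a description. IGFBP3, a carrier of insulin-like growth factors, was higher in perirenal fat at 330.0 CPM, 389 CPM, 223 CPM and 726 CPM against 64.3 CPM, 85.2 CPM, 63.1 CPM and 257 CPM (1.95 ± 0.21, adjusted p = 0.0103). IGFBP5, another carrier, was higher in epicardial fat at 3770 to 7645 CPM against 1171 to 2692 CPM (-1.51 ± 0.24, adjusted p = 0.0312). The 2 carriers thus ran in opposite directions, each in all 4 sheep.

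In the renin-angiotensin list, 1 of 9 genes was called with 4 pairs and 4 without sheep 255, against 3.08% and 7.47% of all genes. ANPEP, a peptidase of angiotensin, stood at 52.6 to 87.3 CPM in perirenal fat and at 9.61 CPM, 13.5 CPM, 9.64 CPM and 37.4 CPM in the epicardial samples of sheep 48, 185, 233 and 255 (log2 fold change 2.14 ± 0.39, SE, n = 4 pairs, edgeR adjusted p = 0.0377). AGT, the angiotensin precursor, ran the other way, at 34.2 CPM, 11.9 CPM, 15.4 CPM and 4.70 CPM in epicardial against 2.10 to 3.94 CPM in perirenal fat, with an adjusted p of 0.0562 with 4 pairs and 0.00812 without sheep 255. Of 16 retinoid genes, 1 was called higher in perirenal fat with 4 pairs, against 0.831% of all genes. This was RARRES1, a retinoid-responsive membrane protein, at 36.5 to 68.4 CPM against 5.41 to 26.9 CPM. Its edgeR adjusted p of 0.04998 lies just inside the threshold (0.0545 without sheep 255). Of 17 steroid receptors and enzymes, 0 were called by edgeR in either fit. HSD11B1, which activates cortisol, stood at 77.4 to 283 CPM in perirenal and 35.5 to 78.4 CPM in epicardial fat (adjusted p = 0.0859).

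Of 34 collagens and elastic fibre genes, 2 were called, both higher in epicardial fat, against 2.25% of all genes in that direction. COL8A1, a short-chain collagen of vessels, stood at 421 CPM, 570.4 CPM, 519 CPM and 267 CPM in the epicardial samples of sheep 48, 185, 233 and 255 against 101 CPM, 238 CPM, 68.4 CPM and 94.5 CPM in perirenal fat (log2 fold change -1.94 ± 0.29, SE, n = 4 pairs, edgeR adjusted p = 0.0297). COL5A3, a minor fibrillar chain, stood at 195 to 357 CPM against 46.1 to 141 CPM (adjusted p = 0.0273). THBS1, an inhibitor of vessel growth, was higher in perirenal fat at 79.6 to 134 CPM against 21.0 CPM, 21.1 CPM, 18.3 CPM and 90.8 CPM, the last in sheep 255 (1.79 ± 0.33, adjusted p = 0.0389). Of 16 fibroblast and progenitor genes, 1 was called higher in each depot with 4 pairs, against 0.831% and 2.25% of all genes. PI16, a marker of adventitial progenitors, stood at 28.1 CPM, 408 CPM, 120.4 CPM and 162 CPM in perirenal and 13.8 to 25.5 CPM in epicardial fat (adjusted p = 0.0488, and 0.0673 without sheep 255). MGP, an inhibitor of calcification, stood at 760 to 1347 CPM in perirenal against 2479 to 3805 CPM in epicardial fat (adjusted p = 0.0340).

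Of 25 tested genes of Wnt and BMP signalling, 2 were called, both higher in epicardial fat, against 2.25% of all genes in that direction. INHBA, the activin subunit, stood at 14.1 to 28.4 CPM against 4.83 to 9.44 CPM (edgeR adjusted p = 0.0340), and TGFB3, a ligand of the same superfamily, at 9.64 to 15.6 CPM against 3.26 to 6.01 CPM (adjusted p = 0.0462, and 0.0579 without sheep 255). None of 26 guidance and adhesion cues was called by edgeR in either fit, and NRP2 among them stood at 69.1 to 157 CPM in perirenal and 48.1 to 114 CPM in epicardial fat. RTL1, an imprinted gene, was the 1 of 13 in its list to be called, at 3.37 to 6.61 CPM in epicardial and 0.483 to 1.21 CPM in perirenal fat (adjusted p = 0.0369).

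Of 16 tested endothelial genes 1 was called with 4 pairs and 4 without sheep 255, all higher in perirenal fat, against 0.831% and 2.52% of all genes. The summed level of the endothelial list was higher in epicardial fat in sheep 233 and 255 and higher in perirenal fat in sheep 48 and 185. PLVAP, the diaphragm protein of capillaries, stood at 32.9 CPM, 70.0 CPM, 13.1 CPM and 39.4 CPM in perirenal and 10.2 CPM, 29.9 CPM, 6.75 CPM and 23.9 CPM in epicardial fat of sheep 48, 185, 233 and 255, so that the groups overlapped while each sheep showed the difference (log2 fold change 1.11 ± 0.22, SE, n = 4 pairs, edgeR adjusted p = 0.0439). Of 7 lymphatic genes, 2 were called higher in perirenal fat with 4 pairs, against 0.831% of all genes. LYVE1, the hyaluronan receptor, stood at 43.8 to 128 CPM against 18.0 to 55.7 CPM (adjusted p = 0.0370). MMRN1, an adhesive protein of vessels, stood at 20.3 to 78.9 CPM against 11.4 to 18.4 CPM (adjusted p = 0.0439). Without sheep 255, MMRN1 was not called (edgeR adjusted p = 0.0579), and the list held 1 call in each direction, LYVE1 and, higher in epicardial fat, RELN, a matrix signal chosen after its values were seen. The shares over all genes were 2.52% and 4.95%. The mesothelial list held 1 call of 5 with 4 pairs, against 2.25% of all genes in that direction. This was PKHD1L1, at 6.21 to 18.6 CPM in epicardial and 0.966 to 3.81 CPM in perirenal fat (adjusted p = 0.0498). Without sheep 255, 1 of 5 was called higher in perirenal and 2 higher in epicardial fat, against 2.52% and 4.95% of all genes. The call higher in perirenal fat was ALDH1A2, named after its values were seen. The mesothelial genes MSLN, UPK3B and KRT19 did not pass the filter.

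Among immune cell lists, the macrophage list held 2 calls of 13 tested genes, both higher in perirenal fat, against 0.831% of all genes. C1QA, a chain of complement C1q made by macrophages, stood at 99.0 CPM, 84.5 CPM, 72.8 CPM and 107 CPM in perirenal and 49.9 CPM, 52.5 CPM, 34.2 CPM and 41.0 CPM in epicardial fat of sheep 48, 185, 233 and 255 (log2 fold change 1.02 ± 0.19, SE, n = 4 pairs, edgeR adjusted p = 0.0377). FCER1G, a signalling chain of Fc receptors, stood at 14.4 to 19.7 CPM against 7.21 to 9.45 CPM (adjusted p = 0.0493, and 0.0699 without sheep 255). C1QA is also the 1 call of 15 complement genes with 4 pairs, against 0.831% of all genes in that direction. None of 10 T and NK cell genes, 2 B and plasma cell genes or 15 interferon response genes was called with 4 pairs. CTSW, a protease of cytotoxic lymphocytes, stood at 2.94 to 8.05 CPM in perirenal and 6.83 to 30.6 CPM in epicardial fat (adjusted p = 0.135).

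Among lists that can follow handling or RNA quality, of 16 genes with retained introns or splicing roles, 7 were called higher in epicardial fat with 4 pairs and 9 without sheep 255, against 2.25% and 4.95% of all genes, with 0 higher in perirenal fat. LUC7L3, a splicing factor, stood at 3502 CPM, 1871 CPM, 4103 CPM and 1514 CPM in the epicardial samples of sheep 48, 185, 233 and 255 against 1139 CPM, 574 CPM, 473 CPM and 713 CPM in perirenal fat (log2 fold change -1.88 ± 0.33, SE, n = 4 pairs, edgeR adjusted p = 0.0357). SRSF6, a splicing regulator, stood at 108 to 193 CPM against 67.5 to 70.2 CPM (adjusted p = 0.0314). The highest LUC7L3 levels were in the 2 epicardial samples with the lowest total counts, sheep 48 and 233, and the part of depth in these calls was not tested. Of 22 immediate early genes, which respond within minutes to stimulation or handling, 5 were called higher in epicardial fat in each fit, against the same background shares. With 4 pairs these were FOSB, EGR2, EGR3, NR4A1 and NR4A2. EGR3 stood at 13.2 CPM, 12.1 CPM, 17.8 CPM and 34.6 CPM against 1.26 to 3.15 CPM (-3.13 ± 0.42, adjusted p = 0.0213) and NR4A2 at 17.7 to 34.7 CPM against 7.501 to 10.8 CPM (adjusted p = 0.0282). For both genes the epicardial sample of sheep 255 was not near perirenal fat. None of 50 cytosolic ribosomal protein genes was called by edgeR in either fit, at a median log2 fold change of 0.39 and 0.51. In control sheep 23 of 50 were called higher in perirenal fat, against 8.28% of all genes, at a similar median of 0.57. By edgeR, 0 of these genes were called for a difference between testosterone and control sheep.

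No gene was called in 24 genes of hypoxia and glycolysis or 14 of the circadian clock with 4 pairs by edgeR. BNIP3, a hypoxia-induced mitophagy receptor, stood at 466 CPM, 658 CPM, 154 CPM and 646 CPM in perirenal and 134 CPM, 161 CPM, 100.2 CPM and 455 CPM in epicardial fat of sheep 48, 185, 233 and 255, with an adjusted p of 0.0635 and, without sheep 255, 0.0363. RORA, a nuclear receptor of the clock, stood at 247 to 399 CPM against 132 to 212 CPM (adjusted p = 0.101).

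The epicardial sample of sheep 255 was placed gene by gene between the mean of the other 3 epicardial samples, set to 0%, and the perirenal sample of the same sheep, set to 100%. For the 314 genes called higher in perirenal fat without sheep 255, its median place was 56.8% with quartiles of 38.5% and 92.1%. For the 587 genes called higher in epicardial fat outside the heart list it was 72.7% with quartiles of 57.6% and 89.7%. When each control sheep was left out in the same way, its epicardial sample had median places of -6.63% to 17.0% and -4.72% to 36.8% for the genes called in the other 3 control pairs. The epicardial sample of sheep 255 was thus farther toward perirenal fat than any control epicardial sample on this measure.

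The shift was not equal for all genes. HOXC6 lay at 38.8%, HOXB6 at 49.3% and DMRT2 at 62.6%, and the adipocyte gene FABP4 at 94.0%. GATA4 lay at 54.7%, SOX9 at 29.8% and TBX20 at 76.3%. The heart muscle gene CASQ2 lay at 99.0%. EDN1 at 2.08%, UNC13C at -5.42%, NR4A2 at -17.7% and PI16 at 0.311% showed no move toward perirenal fat. These genes were called with all pairs, while HOXC6 and DMRT2 were called only without sheep 255. The contrast thus follows in part from how the genes were chosen. ADAM33, a membrane protease called only without sheep 255, stood at 40.3 CPM, 38.2 CPM, 36.1 CPM and 12.2 CPM in the epicardial samples of sheep 48, 185, 233 and 255 against 8.25 to 13.9 CPM in perirenal fat, a place of 107%. How this sample came to hold transcripts of both depots was not tested.

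The pairs also differed in how far apart their 2 depots were. Of 8753 genes outside the heart list with a mean of at least 10 CPM, 24.2% differed more than 2-fold between the samples of sheep 233, 19.2% in sheep 48, 8.35% in sheep 185 and 5.83% in sheep 255, on log2(CPM + 1). In the control sheep the shares were 18.4% in sheep 98, 8.08% in sheep 131, 7.56% in sheep 132 and 12.3% in sheep 201. The 2 sheep with the widest difference were those with the lowest epicardial total counts, and shallow samples vary more by counting alone. The part of depth in these shares was not tested.

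In control sheep, 2205 of 12692 genes (17.4%) were called between the same depots, 1051 (8.28%) higher in perirenal and 1154 (9.09%) higher in epicardial fat. Of the 104 and 281 genes called in testosterone sheep with 4 pairs, 64 and 200 were called in the same direction in controls, which is 61.5% and 71.2% of the testosterone calls and 6.09% and 17.3% of the control calls. Without sheep 255, 234 of 314 and 377 of 616 were shared, or 74.5% and 61.2% of the testosterone calls. None was called in the opposite direction in controls. Across 12114 genes tested in both groups outside the heart list, the log2 fold changes of testosterone and control sheep correlated at 0.782 with 4 pairs and 0.812 without sheep 255, a value across genes that are not independent replicates.

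The difference between the depots was then compared between testosterone and control sheep directly, as an interaction over 16 samples. By edgeR 0 of 13568 genes (0%) were called, 646 had an unadjusted p under 0.05, and the lowest adjusted p was 0.469. DESeq2 called 3 genes. A call in 1 group and not in the other was thus not shown to differ between the groups for any gene by edgeR. MMP16, a membrane-bound matrix protease, stood at 55.4 CPM, 70.2 CPM, 111 CPM and 63.5 CPM in perirenal fat of sheep 48, 185, 233 and 255 and at 42.1 CPM, 30.3 CPM, 50.6 CPM and 35.5 CPM in epicardial fat. In controls it stood at 19.8 to 48.6 CPM in perirenal and 30.1 to 63.9 CPM in epicardial fat, lower in perirenal fat in all 4 sheep. The interaction was 1.497 ± 0.28 on the log2 scale (SE, 16 samples, edgeR adjusted p = 0.615), so it did not pass. ANLN, an actin-binding protein of cell division, gave 2.43 ± 0.51 (adjusted p = 0.990) at levels of 1.40 to 7.61 CPM in the testosterone samples. MYL3, a heart myosin light chain at 823 CPM and 63.1 CPM in the epicardial samples of sheep 48 and 233 and at 0 in the other 6 testosterone samples, had the lowest adjusted p, 0.469.

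PRG4 was called in testosterone sheep at 2.77 and stood at -0.26 ± 1.12 in controls (SE, n = 4 pairs, edgeR adjusted p = 0.903), and the difference of 3.003 ± 1.28 between the groups had an adjusted p of 0.990. GATA4, SOX9, GRB14, TMEFF2 and UNC13C were called in control sheep in the same direction, and GATA4 again had no read in perirenal fat. IGFBP3 and EDN1 were called higher in perirenal fat of controls too, at 2.88 ± 0.47 and 1.89 ± 0.26 (adjusted p = 0.0164 and 0.00110). The HOX genes were called in 20 of 22 tested in controls at a median of 4.36, next to 15 of 20 at 4.15 in testosterone sheep without sheep 255. The shares of all genes called higher in perirenal fat were 8.28% and 2.52%.

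**Figure D5:**
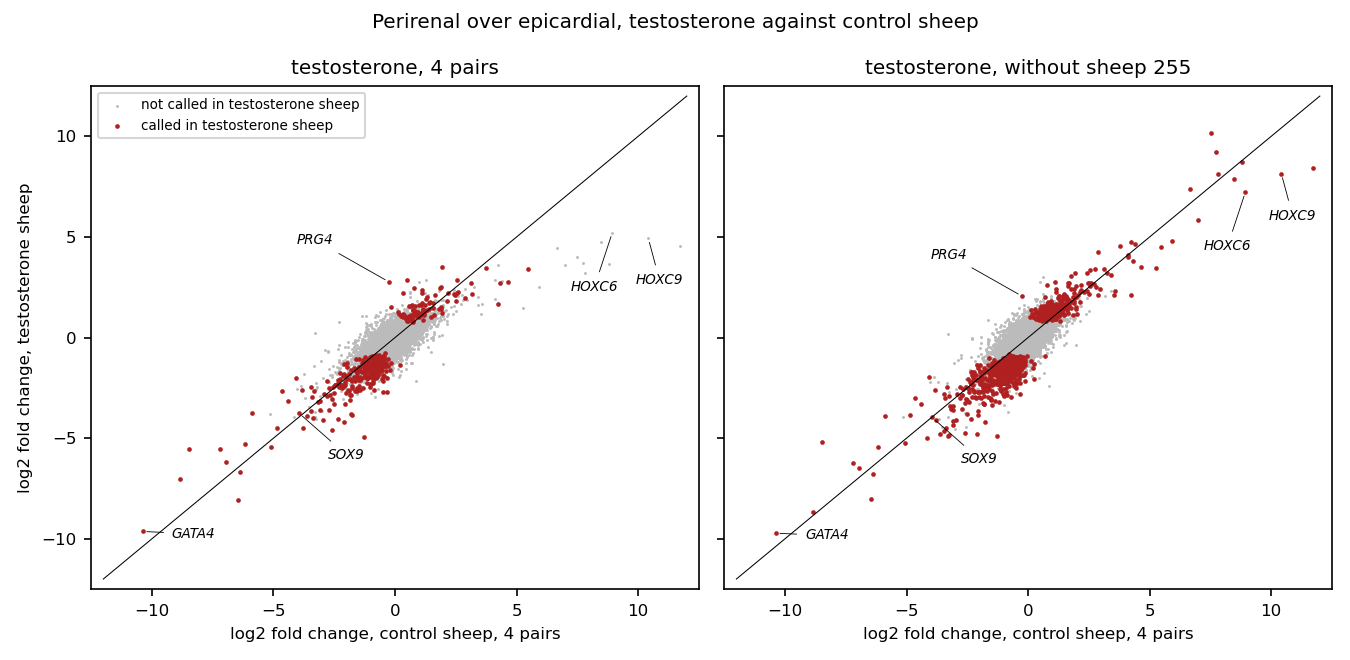
Log2 fold change of perirenal over epicardial fat in testosterone sheep (vertical) against control sheep (horizontal) for genes tested in both outside the heart list, with 4 pairs (left) and without sheep 255 (right). Red points are called in testosterone sheep, the line marks equal values, and HOXC6 and HOXC9 move closer to the line when sheep 255 is left out.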

How the data were processed

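The authors deposited raw read counts per gene, whole numbers for 28524 genes, and per the submitters' processing notes named, without role or order, featureCounts 1.6.1, STAR, DESeq2 1.24.0, Trimmomatic 0.36, R 3.6.3, MultiQC 0.9 and FastQC 0.11.5. For genome build, annotation and strand setting the entry is not given in the sources used here. Values of overlapping genes and of near-identical copies are therefore uncertain, and no sequence or coordinate is printed. Per the labels' protocols, RNA had an integrity number of at least 7 and libraries were made with a 3′ end kit.

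From these counts, edgeR 4.0.16 in R 4.3.3 gave TMM factors, CPM, and quasi-likelihood tests (robust fit, adjusted p by Benjamini-Hochberg over every gene tested, threshold 0.05, low genes removed by filterByExpr at 10 counts) with sheep as a block. Each SE came from the fold change and its F statistic. The interaction used 16 samples with sheep, depot and depot by testosterone. DESeq2 1.42.0 was an alternative. The scripts were tested on simulated data. Profile shares came from non-negative least squares in scipy 1.17.1. Floors (3 counts) cover counting error only, while each SE also reflects variation between sheep.

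The pairs rest on the animals: both depots came from the same sheep. Deviations of the 2 samples of a sheep from their group means correlated at 0.113 (48), 0.283 (185), 0.0945 (233) and 0.00636 (255). Between different sheep they correlated at -0.116 to 0.0415, so the value of sheep 255 lay within that range and gives its pairing no support. All 12 pairs of replicate samples differed beyond sampling noise, the lowest ratio of chi-square to degrees of freedom being 14.4.

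The comparison, members and lists were chosen with earlier results of these data known. Genes named are the 10 with the largest fold in each direction that passed with and without sheep 255, in all 4 pairs, at 10 CPM or more and outside the heart list, then up to 2 per list and direction by p (by values where none passed), the 4 highest heart genes, the 3 smallest p of the interaction, and up to 5 per direction called in only 1 of the 2 fits. The HOX, heart and kidney regulators may be given member by member. Set tests were not made. Some results are not reported here.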

Additional observations from a re-analysis of the deposited data

Results flagged for a closer look

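In 4 samples of a group, the highest or lowest value was marked when its gap to the nearest other sample exceeded Dixon's 95% limit as a share of the group's range, which chance gives in about 5% of groups. Of 206 groups of 4 tested over the named genes, 27 were marked, 12 of them through the epicardial sample of sheep 255 and 6 through that of sheep 48. The named genes include genes chosen because they were called only without sheep 255, among them HOXC6, HOXC8, HOXC9, DMRT2 and ADAM33, so the count for that sample follows in part from the choice of genes and cannot be read against the chance rate.

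The epicardial sample of sheep 255 was the highest for HOXC6 (94.6 CPM), HOXC9 (41.0 CPM), HOXC8 (35.2 CPM), HOXA6 (23.1 CPM), HOXD8 (16.9 CPM), HOXB6 (8.84 CPM) and DMRT2 (68.8 CPM). It was also highest for FABP4 (15042 CPM), IGFBP3 (257 CPM), THBS1 (90.8 CPM) and ANPEP (37.4 CPM), and lowest for ADAM33 (12.2 CPM). For FABP4 the other 3 epicardial samples lay between 4860 and 6252 CPM, and for HOXC8 between 0 and 0.402 CPM.

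The epicardial sample of sheep 48 was highest for CASQ2 (544 CPM), PLN (7731 CPM), MYL2 (5652 CPM), ANKRD1 (4082 CPM), MYL3 (823 CPM) and NDUFS1 (215 CPM). These are 5 heart muscle genes and a respiratory chain gene.

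Among perirenal samples, sheep 233 was highest for EHHADH (330.6 CPM), ECHS1 (457 CPM), NDUFS1 (78.1 CPM), KERA (3.22 CPM) and OLFM2 (3.35 CPM), and lowest for ERC2 (0 CPM). Sheep 255 was highest for ISG15 (5.17 CPM) and TBX20 (0.136 CPM), and sheep 185 for NPR3 (9.34 CPM). EHHADH, ECHS1 and NDUFS1 are mitochondrial or peroxisomal proteins, and the perirenal sample of sheep 233 had the highest total count of the 8.

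MMP16 was higher in perirenal fat in all 4 testosterone sheep and lower in all 4 control sheep, a difference of differences of 1.497 on the log2 scale that did not pass by edgeR (adjusted p = 0.615) and passed by DESeq2 (adjusted p = 0.0302).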

How the results depend on the processing

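The 385 genes called with 4 pairs became 31 to 930 when 1 pair was left out (930 without sheep 255, 51 without 48, 58 without 185, 31 without 233), 833 with no replicate block, 1403 by DESeq2, 1142 with no filter, 1856 in a fit of all 32 samples and 0 with the heart sum as a covariate. Other size factors, a stricter filter and leaving the heart list out stayed within 1.5 times. Without sheep 255, in settings added after seeing the data, 933 genes were called with no replicate block, 1292 by DESeq2 and 997 without the heart list. Calls within the lists ranged from 9 to 131 over the fits without 1 pair and were 165 by DESeq2, 131 with no filter, 199 with all 32 samples, 0 with the heart covariate, and, without sheep 255, 101 with no block, 179 by DESeq2 and 104 without the heart list. The control count of 2205 ranged from 1196 to 1710 without 1 pair, also added after seeing the data. The interaction gave 0 to 3 calls without 1 sheep (PCOLCE2, MFAP5 and LRRC17 without sheep 48), 3 by DESeq2 (MMP16, THBS4 and 1 gene without a symbol), 1 with no filter (MYL3) and 1 with all 32 samples (a gene without a symbol), each named after its values were seen. The perirenal share of the epicardial sample of sheep 255 was 57.7% with genes at 16-fold. Over 100 named genes, 0 were marked as reversed in 1488 comparisons, although TBX3, which was not called, changed sign without sheep 255. The heart sum was higher in every epicardial than in every perirenal sample, so the 0 calls with it as a covariate cannot separate it from the depot. The cause of these changes was not tested. Limits are the 4 pairs, the shallow epicardial samples of sheep 48 and 233, heart muscle in 2 of them and the doubt over sheep 255.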
